A study of Mus musculus with 16 samples.

Results

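The genes described here are 48 regulators and effectors of the mouse cell cycle, measured in pancreatic islets of the 8 founder strains of the Diversity Outbred mice. The members were set by name and found by the gene name in the tables' identifiers, and all 48 were present among the 54146 genes of the tables. All 48 also passed the filter that left 15204 genes for testing. Islet mRNA was sequenced in 91 libraries from mice of 26 weeks, all on a high-fat diet, and each of the 16 samples groups libraries by strain and sex. The strains were 129S1_SvImJ (129, 10 libraries), A_J (AJ, 14), C57BL/6J (B6, 18), CAST_EiJ (CAST, 14), NOD_ShiLtJ (NOD, 10), NZO_HlLtJ (NZO, 4), PWK_PhJ (PWK, 5) and WSB_EiJ (WSB, 16), with no treatment besides the diet. NZO had 3 libraries of females and 1 of a male, and PWK had 1 of a female and 4 of males. NOD is an inbred strain known for autoimmune infiltration of its islets by leukocytes. Whole islets hold endocrine cells beside endothelial, stromal and immune cells, and in such bulk samples more cells of a type and more RNA per cell cannot be told apart.

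A cell that enters the cycle first builds D-type cyclins, which with Cdk4 and Cdk6 inactivate the retinoblastoma proteins and release E2F transcription factors. Cyclin E and Cdk2 then start DNA replication, for which the Mcm helicase and nucleotide synthesis are needed, and mitosis follows under cyclin B, Cdk1, the Aurora and Polo kinases and the anaphase-promoting complex. Inhibitors of the Ink4 and Cip families hold these kinases back. Beta cells of adult mice divide rarely, cyclin D2 is known as the main D-type cyclin of the beta cell, and the Ink4 inhibitor Cdkn2a is known to limit beta cell division with age. Lymphocytes, in contrast, can divide quickly once activated, so that the leukocyte gene Ptprc, which encodes the surface phosphatase CD45, was followed beside the members.

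The libraries summed to between 16928552 and 35196145 expected counts (median 27485367). The members had a median of 82.5 expected counts per library, and 44 of the 48 had counts in all 91 libraries. Of the 16 tested immune markers, all 16 were higher in NOD, 12 to 15 were lower in each of AJ, B6, CAST and WSB, 7 were lower in 129, 5 were higher and 1 lower in PWK, and 3 were higher and 1 lower in NZO. The summed level of the 18 listed immune markers ranged from 55.1 to 5072 TPM in NOD and from 18.1 to 243 TPM over the libraries of the other strains. The beta cell markers summed to 165905 to 570552 TPM over all libraries, so that the labelled tissue was visible in every library. Acinar markers varied widely, from a summed 1451 TPM in a library of AJ to 280818 TPM in a library of B6. NOD library 7 was the highest NOD library for 40 members, NZO library 4 stood apart from the other 3 NZO libraries in mitosis, and the counts of members called in NOD and NZO are given with and without them. In 12 libraries (6 of 129, 2 of NOD and 4 of WSB) sex-linked RNA was opposite to the sex label. Library numbers 66 to 100 held 129, NOD, NZO and PWK only, and lower numbers held the other 4 strains, so that number range and strain cannot be told apart between these sets. Within 66 to 100 each strain had its own numbers (PWK at 66 to 75, 129 at 76 to 85, NZO at 86 to 90 and NOD at 91 to 100). Number and strain cannot be told apart there either. The labels' protocols name 4 waves of animals but not the wave of a library, so that wave was not in any model, and strain differences and p-values may carry it. No label says whether libraries of a group came from separate mice, and p-values measure the spread between libraries.

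Many of the members are transcribed together late in the cycle, and their promoters are known for CCAAT boxes, which bind NF-Y, for the cell cycle homology region TTTGAA, where MuvB complexes bind, and for E2F sites. RefSeq promoter windows of GRCm38.p6, from 250 bases before to 50 bases after the transcript start, were matched for 41 of the 48 members and were not found for Ccnd1, Ccna2, Foxm1, Aurkb, Ccne2, Ccnd2 and Mcm4. The letters were searched on both strands, a site of E2F as TTGGCGC, as a second form TTCGCGC and as another form TTCCCGC, and matches were allowed to overlap, also those of the same motif. CCAAT was found for 30 of the 41 members (73.2%) and for 41.1% of all 27025 genes, TTTGAA for 17 members (41.5%) and 20.2% of all genes, and the E2F letters for 12 members (29.3%) and 9.2% of all genes. Among the 19 matched genes of G2 and mitosis, 16 held CCAAT and 13 held both CCAAT and TTTGAA, compared with 7.97% of all genes that held both. Among the 10 matched replication genes, 5 held the E2F letters, 8 held CCAAT and 2 held TTTGAA. The promoters of genes that rose together in NOD are given here, with all motif letters in capitals on either strand. They are the bases before the RefSeq start at chr7:135716380-135716579 (minus strand), chr11:99024190-99024389 (minus strand), chr10:69352939-69353112 (minus strand), chr9:70421555-70421754 (minus strand), chr2:164769729-164769897 (plus strand) and chr1:128359706-128359905 (minus strand), written 5′ to 3′ along each gene, and the last bases before the start are left out for Cdk1 and Ube2c because an annotated exon begins there.
Mki67: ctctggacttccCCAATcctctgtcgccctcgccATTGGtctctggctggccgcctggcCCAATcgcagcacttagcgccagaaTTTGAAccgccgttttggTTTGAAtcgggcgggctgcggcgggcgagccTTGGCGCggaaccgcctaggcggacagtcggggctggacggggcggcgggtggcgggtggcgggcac
Top2a: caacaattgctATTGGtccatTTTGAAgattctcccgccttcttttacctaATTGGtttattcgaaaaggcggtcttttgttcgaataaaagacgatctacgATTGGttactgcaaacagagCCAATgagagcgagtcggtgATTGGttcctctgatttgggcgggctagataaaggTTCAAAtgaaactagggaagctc
Cdk1: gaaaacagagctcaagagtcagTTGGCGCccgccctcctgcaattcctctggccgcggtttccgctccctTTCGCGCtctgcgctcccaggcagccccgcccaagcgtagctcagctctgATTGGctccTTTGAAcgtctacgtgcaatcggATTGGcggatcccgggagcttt
Ccnb2: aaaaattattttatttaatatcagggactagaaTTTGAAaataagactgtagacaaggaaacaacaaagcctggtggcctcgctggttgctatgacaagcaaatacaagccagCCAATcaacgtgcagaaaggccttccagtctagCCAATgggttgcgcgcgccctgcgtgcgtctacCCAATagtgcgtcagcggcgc
Ube2c: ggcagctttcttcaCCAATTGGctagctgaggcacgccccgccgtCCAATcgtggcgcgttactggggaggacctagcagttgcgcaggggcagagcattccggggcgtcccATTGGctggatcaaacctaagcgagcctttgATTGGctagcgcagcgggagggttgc
Mcm6: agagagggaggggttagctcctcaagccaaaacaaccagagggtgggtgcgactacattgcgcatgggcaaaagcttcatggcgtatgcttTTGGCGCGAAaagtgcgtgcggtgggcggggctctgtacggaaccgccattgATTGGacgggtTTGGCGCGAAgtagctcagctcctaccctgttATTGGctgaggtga
In the stretches shown, Top2a and Ube2c each hold 5 CCAAT matches, Mki67 and Ccnb2 each hold 3, and Mcm6 holds 4 matches to the E2F letters, which overlap in pairs. The CCAAT matches of Ube2c that begin at -186 and -183 from the start also overlap, on opposite strands. Pttg1, which differed most between strains, has no match to any of these letters in its window. These are the letters of the reference genome, which is that of C57BL/6J, and a match is a description of letters and not of a bound site.

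On the scale of TPM, which allows levels to be compared between genes, the members spanned a wide range. The highest were Ccnd2, which encodes cyclin D2, at 153 TPM ± 47.3 (SD, n = 91), its kinase partner Cdk4 at 89.6 TPM ± 20.3 (SD, n = 91), the inhibitor Cdkn1a (p21) at 46.7 TPM ± 25.1 (SD, n = 91) and the replication clamp Pcna at 36.3 TPM ± 14 (SD, n = 91). The inhibitor Cdkn1b (p27) stood at 30.6 TPM ± 9.15 (SD, n = 91), Ccnd3 at 28.2 TPM ± 11 (SD, n = 91) and Ccnd1 at 27.8 TPM ± 11.3 (SD, n = 91). Cdk6, the other partner of the D-type cyclins, was far lower at 0.54 TPM ± 0.55 (SD, n = 91). Genes of mitosis were low, and the proliferation marker Mki67 had a median of 0.55 TPM with a range from 0.14 to 16.6 TPM. Bub1, Cdc6 and Cenpe had medians of 0.23, 0.18 and 0.29 TPM and were at 0 in the lowest library. In all, 34 members had a mean of at least 1 TPM and 14 had a lower mean.

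**Figure D1:**
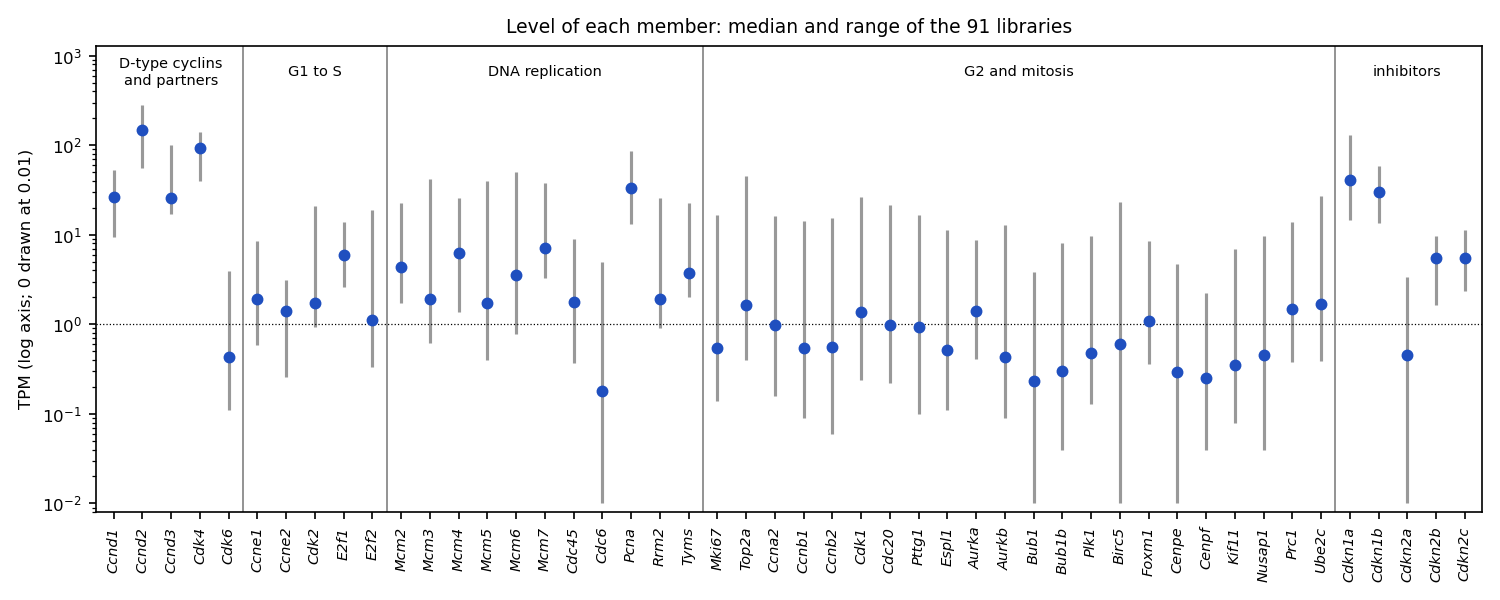
Level of each of the 48 members in TPM (log axis), grouped by role, with the median (point) and the range (line) of the 91 libraries and a dotted line at 1 TPM. Ccnd2 and Cdk4 stand highest with medians of 148 and 92.9 TPM, and the genes of G2 and mitosis have low medians but maxima of 2.24 to 44.8 TPM.

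All 48 members differed between the strains in an F test over strains in a model of strain and sex (edgeR's quasi-likelihood test, adjusted p under 0.05), where 97.4% of all tested genes did. Each strain was then compared with the mean of the other 7 strains. In NOD, 40 members were higher and 4 were lower, where 35.8% of all tested genes were higher and 29.5% lower. The median log2 fold change of the members in NOD was 1.65, and that of all tested genes was 0.03. In the other strains the calls went both ways. WSB had 6 members higher (26.6% of all genes) and 19 lower (29.7%), B6 had 4 higher (25.6%) and 15 lower (27.6%), AJ had 6 higher (24.9%) and 14 lower (32.1%), and CAST had 4 higher (26.7%) and 13 lower (31%). In 129, 6 members were higher (27.9%) and 11 lower (21%), in PWK 2 were higher (23.2%) and 7 lower (21.8%), and in NZO 4 were higher (20%) and 1 lower (14.2%). Single libraries moved the counts of these last strains. In PWK 14 members were lower without library 5, 3 without library 2 and 4 without library 1 or 4, and 1 was higher without library 4. In NZO 7 were higher without library 2, and 1 was higher and 3 lower without library 4. No share of all genes is given for these fits, so that nothing particular to the members is read from these counts. These comparisons share libraries, and the mean of the other strains includes NOD wherever another strain was compared.

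**Figure D2:**
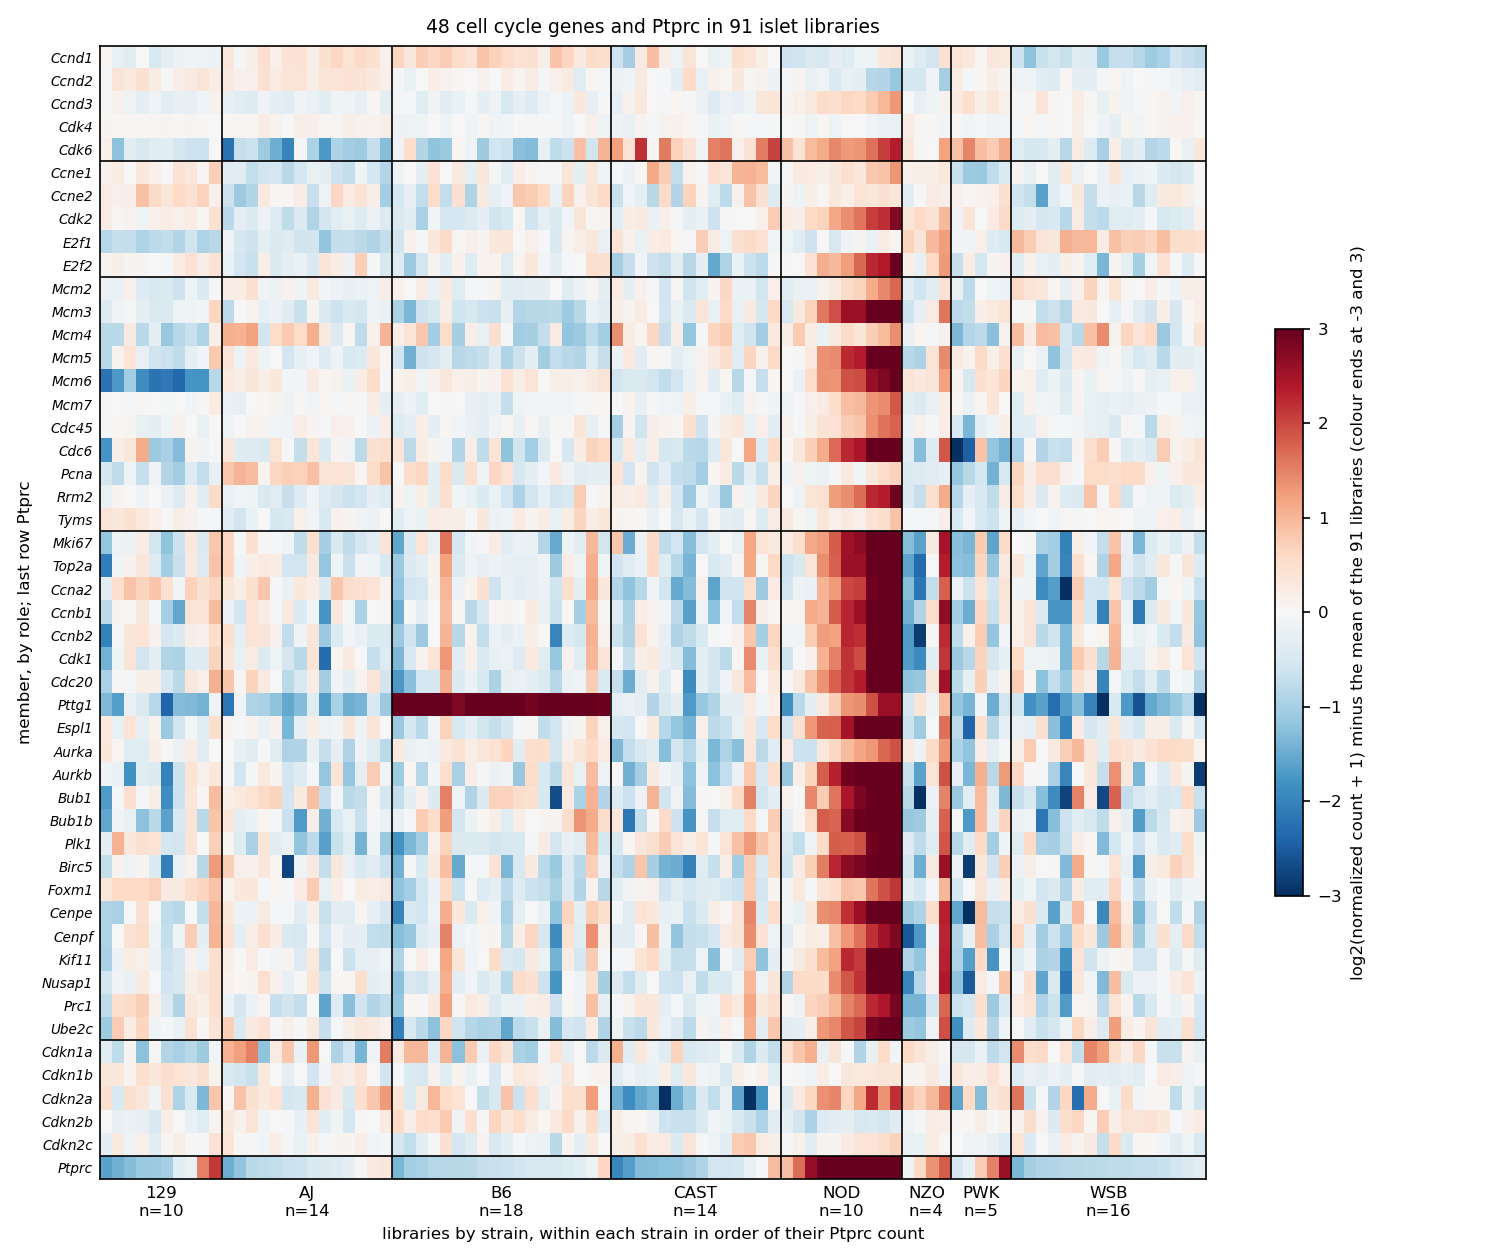
Heat map of log2(normalized count + 1) of the 48 members and of Ptprc (rows, grouped by role) in the 91 libraries (columns, by strain and within each strain in order of their Ptprc count), as the difference from the mean of all libraries. The genes of replication and mitosis deepen along the NOD libraries with Ptprc, the fourth NZO library stands apart in mitosis, Pttg1 is high in all 18 B6 libraries, and Mcm6 is low in 129.

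In NOD the genes of G2 and mitosis rose as a whole, with 22 of 22 members higher and a median log2 fold change of 2.33. Markers of other cell types differed in NOD as well: beside the 16 of 16 immune markers, 6 of 6 fibroblast and stellate markers were higher (median log2 fold change 1.72, summed level 31.2 to 363 TPM), 8 of 9 acinar markers were higher (1.52), and 6 of 8 beta cell markers were lower (-0.39). Their part in the rise of the members was not tested. Without NOD library 7, which has the most Ptprc, 39 members were higher in NOD (34.2% of genes) and 4 lower (26.7%), Mki67 by 2.40 ± 0.26 and Aurkb by 2.65 ± 0.27 (SE), while Pcna and Cdk4 no longer passed and E2f1 was lower. Mki67 had a lowest, median and highest normalized count of 171, 687 and 2488 in the 10 NOD libraries and of 35, 126 and 808 in the 81 other libraries, and its log2 fold change was 2.67 ± 0.24 (SE). The groups overlapped, since the lowest NOD libraries lay among those of the other strains. Top2a, the topoisomerase that untangles replicated DNA, ranged from 82.7 to 2047 in NOD (median 604) and from 24.9 to 657 elsewhere (median 113), a log2 fold change of 2.61 ± 0.25 (SE). The kinase Aurkb rose most, by a log2 fold change of 2.96 ± 0.25 (SE), from a median of 12.4 in the other strains to a median of 90.9 in NOD. The spindle checkpoint genes Bub1b and Bub1 were higher by log2 fold changes of 2.90 and 2.61, with NOD medians of 122 and 55.1 and other medians of 20 and 9.94. Birc5 (survivin) and Espl1 (separase) had NOD medians of 105 and 137 and other medians of 15.7 and 24.6. The mitotic cyclins Ccnb1 and Ccnb2 and their kinase Cdk1 had NOD medians of 104, 73.1 and 108 and other medians of 22.7, 18.7 and 26.8. Cdc20, which activates the anaphase-promoting complex, had a median of 142 in NOD and 29.9 elsewhere. The motors Kif11 and Cenpe stood at medians of 140 and 96.5 in NOD and 38.1 and 22.7 elsewhere, the spindle gene Nusap1 at 103 and 28.8, and the Polo kinase Plk1 at 96.4 and 21.6. The remaining genes of this group (Ccna2, Pttg1, Aurka, Foxm1, Cenpf, Prc1 and Ube2c) were higher by log2 fold changes from 0.96 for Aurka to 2.09 for Ube2c.

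The 11 replication genes were all higher in NOD, with a median log2 fold change of 0.98. The helicase subunits did not move alike. Mcm3, Mcm5 and Mcm6 were higher by log2 fold changes of 2.61 ± 0.17, 2.37 ± 0.17 and 2.06 ± 0.13 (SE), and Mcm2, Mcm7 and Mcm4 by 0.78 ± 0.11, 0.95 ± 0.09 and 0.64 ± 0.20 (SE). Mcm3 ranged from 71.4 to 1537 in NOD (median 493) and from 38.3 to 309 elsewhere (median 84.8). Mcm5 ranged from 117 to 1528 in NOD (median 433) and from 42.6 to 312 elsewhere (median 99.9). The licensing factor Cdc6, which loads the helicase, was higher by 2.68 ± 0.23 (SE), with medians of 55.3 and 11.9. Pcna and Tyms, which makes thymidylate, were higher by only 0.31 and 0.37.

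Of the G1 to S genes, Cdk2, E2f2 and Ccne1 were higher in NOD by log2 fold changes of 1.55, 1.68 and 0.63, and Ccne2 and E2f1 did not pass the test (0.16 and -0.19). The D-type cyclins and their partners divided. Cdk6 and Ccnd3 were higher by 1.37 and 0.66, and Ccnd2, Ccnd1 and Cdk4 were lower with log2 fold changes of -0.38, -0.23 and -0.09. Among the inhibitors, Cdkn2a and Cdkn2c were higher (1.30 and 0.28), Cdkn2b was lower (-0.51), and Cdkn1a and Cdkn1b did not pass the test (0.22 and 0.13).

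The rise in NOD followed Ptprc from library to library. In order of rising Ptprc, the 10 NOD libraries had Ptprc normalized counts of 383, 658, 1286, 2555, 2954, 4828, 5462, 7945, 10091 and 13705. In the same order Mki67 had counts of 171, 205, 318, 348, 517, 857, 941, 1535, 1563 and 2488. The order of the libraries was the same for both genes. Pearson's r of the log2 values was 0.97 and Spearman's rho 1.00 (permutation p = 1e-05 for both, the smallest that 100000 permutations can give, and 6e-05 after Benjamini-Hochberg adjustment over 6 strains), and r was 0.98 without the 2 libraries farthest from the median of Ptprc. In the other strains with at least 10 libraries no such relation passed the test, with r of 0.51 in 129 (n = 10, adjusted permutation p = 0.39), -0.32 in AJ (n = 14, 0.402), 0.06 in B6 (n = 18, 0.795), 0.33 in CAST (n = 14, 0.402) and -0.09 in WSB (n = 16, 0.795). Ptprc spanned a narrower range there, from 52 to 895. T cell, B cell and macrophage markers rose in the same libraries of NOD, Cd3e from 22.6 in the library with the lowest Ptprc to 2056 in the library with the highest, Cd79a from 188 to 5191 and Cd68 from 84.6 to 1396. Fibroblast and stellate markers followed Ptprc too, with a positive slope on Ptprc within strains for 6 of 6 (median 0.39), beside 15 of 15 immune markers (0.99). Which of these cells hold the Mki67 RNA was not tested. In the 7 NOD libraries with the most Ptprc, there were 13.6 to 19.3 Mki67 counts for each 100 of Ptprc, and in the library with the least there were 44.6. The medians were 99.4 in 129, 87.2 in AJ, 88.7 in B6, 96.9 in CAST and 86.7 in WSB, against 17.9 in NOD, 32.6 in NZO and 31.5 in PWK.

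**Figure D3:**
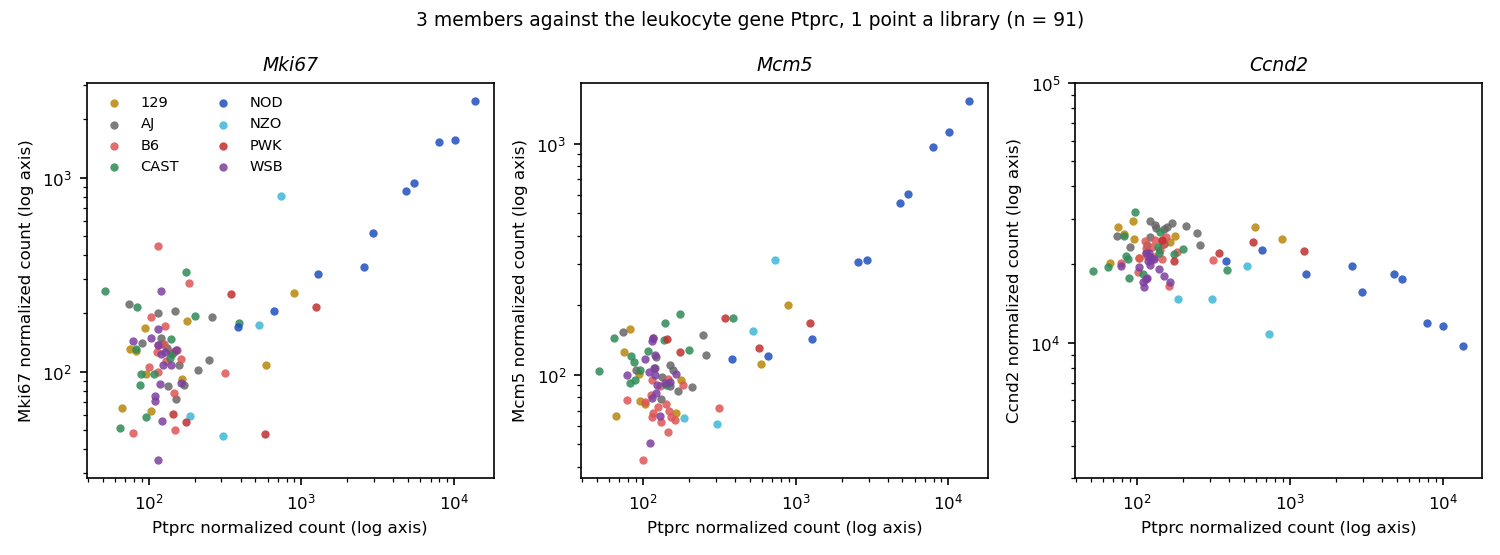
Normalized counts of Mki67, Mcm5 and Ccnd2 against that of Ptprc (both axes log), with each point a library coloured by strain. Mki67 and Mcm5 rise with Ptprc along the NOD libraries, up to 2488 and 1528, while the library with the most Ptprc has the lowest count of Ccnd2 (9690).

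A slope on log2 Ptprc was fitted for each gene together with strain and sex. It was positive for 38 members, where 20.9% of all tested genes but Ptprc were positive, and negative for 2 (Ccnd2 and Cdkn1a), where 16.6% were negative. All 22 genes of G2 and mitosis had a positive slope, with a median of 0.52 on the log2 scale for each doubling of Ptprc, and Mki67 had 0.51 ± 0.10 (SE). In NOD alone 42 members had a positive slope (24.9% of genes) and 1 a negative slope (25.6%), and Mki67 had 0.82 ± 0.06 (SE). Without NOD, 7 members passed, all positive (5.12% of genes were positive and 0.421% negative), namely Mcm3, Mcm5, Mcm6, Cdk2, E2f2, Bub1b and Nusap1 with slopes of 0.15 to 0.40. When Ptprc was in the model, 1 member was higher in NOD (8.18% of genes) and 1 lower (7.84%). The member that was higher was the inhibitor Cdkn1a (1.09 ± 0.38, SE), which did not pass without Ptprc, and the lower was Ccnd1 (-0.66 ± 0.18, SE). The 1.09 of Cdkn1a depends on the single slope of the model (-0.22). Its slope did not pass in NOD alone (-0.09 ± 0.10, SE) or without NOD (-0.25 ± 0.10, SE). Mki67 in NOD had a log2 fold change of 0.17 ± 0.51 (SE) with Ptprc in the model, and the median over the 22 genes of G2 and mitosis was -0.28. These intervals are wide, since most NOD libraries have more Ptprc than any other library, and the single slope of the model lies between those within and outside NOD. With Ptprc in the model 35 members still differed between strains (94.3% of genes), among them all genes of the D-type cyclin, G1 to S, replication and inhibitor groups, but 9 of the 22 genes of G2 and mitosis.

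**Figure D4:**
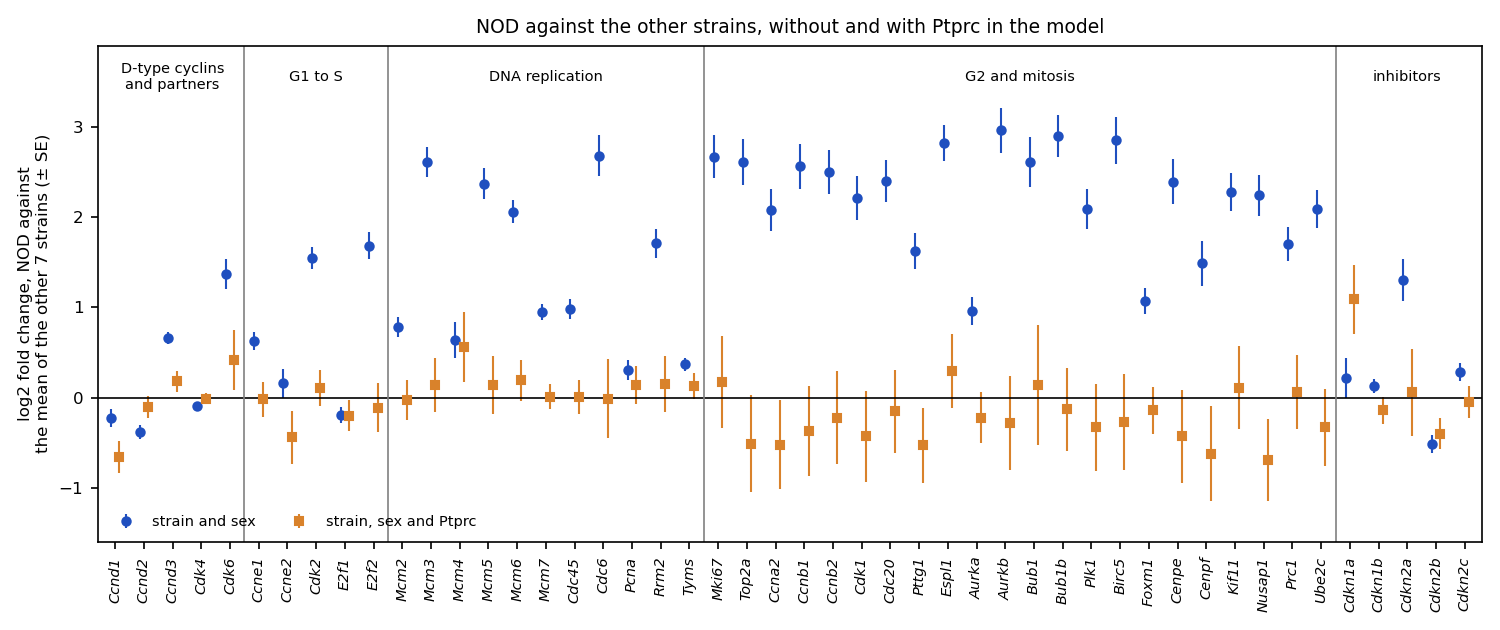
Log2 fold change of each member in NOD against the mean of the other 7 strains (± SE), in a model of strain and sex (circles) and with Ptprc added (squares), grouped by role. The genes of G2 and mitosis lie between 0.96 and 2.96 without Ptprc and between -0.69 and 0.30 with it.

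Neither sex as a main effect nor its interaction with strain was called for any member over all libraries. The sex effect was called for 0 members, where 4.01% of genes were called. At an unadjusted p under 0.05 there were 3, and limma-voom and DESeq2 called 0 as well. Its smallest adjusted p-value was that of Ccne1, which encodes cyclin E1 (0.0662), and without the libraries whose sex-linked RNA was opposite to their label Ccne1 was called (0.0461). Ccne1 was also called as higher in males with Ptprc in the model (0.21 ± 0.06, SE, adjusted p = 0.0374, edgeR). The same held without NOD (0.25 ± 0.07, SE, adjusted p = 0.0247, edgeR). The interaction was called for 0 members over the 82 libraries of all strains but NZO and PWK (5.9% of genes). At an unadjusted p under 0.05 there were 2 members, and limma-voom called 0. It changed without the 12 libraries opposite to their label, when 24 members were called (17.6% of genes), Mki67, Top2a, Cdk1, Mcm3, Mcm5 and Mcm6 among them. Leaving out the 2 such libraries of NOD alone gave 27 members (22.4% of genes), and leaving out all of NOD as well as the opposite libraries of the other strains gave 0 in edgeR's test (3.64% of genes), with 4 at an unadjusted p under 0.05. One of these 2 NOD libraries, labelled male, has the most Ptprc of all libraries (13705), and the other, labelled female, has 10091. Of the other 8 NOD libraries, the 4 of females had Ptprc of 2555 to 7945 and Mki67 of 348 to 1535, and the 4 of males had Ptprc of 383 to 2954 and Mki67 of 171 to 517. The difference in Mki67 was 1.55 on the log2 scale (female minus male, two-sided exact permutation p = 0.0571, where 0.0286 is the smallest that 4 against 4 allows), and over all 10 libraries it was 1.11 (exact permutation p = 0.167). With Ptprc in the model, 2 members (Mcm2 and Mcm5) were called in the interaction without the opposite libraries (10.1% of genes).

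Without NOD, 33 of the 48 members differed between the other 7 strains, where 94.9% of all tested genes did. All 5 D-type cyclins and partners, all 5 G1 to S genes, all 5 inhibitors and 9 of the 11 replication genes differed, but 9 of the 22 genes of G2 and mitosis. Those not called were Mki67, Top2a, Ccnb1, Ccnb2, Cdk1, Cdc20, Espl1, Aurkb, Bub1, Birc5, Cenpe, Cenpf and Nusap1, and of the replication genes Cdc6 and Cdc45. The median Mki67 count lay between 60.5 in PWK and 136 in AJ over these 7 strains. WSB, with 19 members lower when NOD was among the others, then had 7 lower (28.5% of genes), B6 had 9 in place of 15 (25.3%), and CAST 6 in place of 13 (28.9%).

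The largest strain difference of any member was that of Pttg1 in B6. Pttg1 encodes securin, the inhibitor of separase that is destroyed at anaphase, and lies on chromosome 11 (43420250 to 43426251, minus strand, GRCm38). Its normalized counts in the 18 B6 libraries had a lowest, median and highest value of 162, 213 and 244. In 129 they were 3.48, 8.36 and 19.9, in AJ 4.21, 9.56 and 20.5, in CAST 6.15, 18 and 26.7, and in WSB 1.01, 6.53 and 15.8. The 4 NZO libraries had 15.5, 20.5, 28.7 and 43.5, the 5 PWK libraries had 7.31, 7.87, 9.23, 14.7 and 20.8, and NOD ranged from 5.64 to 139. Every B6 library lay above every library of the other strains, which was so for 0.046% of the tested genes and for no other member. The log2 fold change of B6 was 3.71 ± 0.17 (SE, adjusted p = 1.13e-34). In TPM, B6 stood at 12.7 ± 2.97 (SD, n = 18) with a range of 6.71 to 16.8, and the 3 NOD libraries with the most Ptprc lay within this range (7.69, 12.4 and 13.9 TPM). With all strains in the fit no other mitotic gene was higher in B6. Bub1b of the spindle checkpoint and the kinase Aurka were higher in B6 without NOD among the other strains (0.53 ± 0.19 and 0.30 ± 0.11, SE) and with Ptprc in the model (0.86 ± 0.21 and 0.45 ± 0.12, SE). Foxm1, a transcription factor of mitotic genes, was lower in B6 (-0.68 ± 0.13, SE), and also without NOD among the other strains (-0.53) and with Ptprc in the model (-0.37). Ube2c, a conjugating enzyme of the anaphase-promoting complex, was lower (-1.02 ± 0.21, SE) and also without NOD (-0.73), but did not pass with Ptprc (-0.42, adjusted p = 0.078, edgeR) or with the libraries of each sample summed (-1.19 ± 0.52, SE, adjusted p = 0.124). Cdc20, Plk1, Birc5, Espl1 and Nusap1 were lower with NOD among the other strains, with values between -0.50 and -0.69. Without NOD none of these 5 passed, with values between -0.10 and -0.36, and with Ptprc in the model they lay between -0.05 and 0.24. Mcm3 and Mcm5 were lower in B6 in each of these fits, by log2 fold changes of -0.97 ± 0.17 and -1.05 ± 0.17 (SE), of -0.61 and -0.73 without NOD, and of -0.35 and -0.50 with Ptprc.

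Mcm6, the helicase subunit on chromosome 1 whose promoter is given above, was low in 129. Its counts there were 44.8, 65.6 and 132 (lowest, median and highest, n = 10), and the medians of the other strains ranged from 172 in CAST to 738 in NOD. A single library of another strain lay below the highest of 129. The log2 fold change was -2.11 ± 0.19 (SE, adjusted p = 1.17e-16), and with Ptprc in the model it was -1.76. The other subunits were not low in 129 to this degree, with -0.62 ± 0.22 for Mcm4 and -0.31 ± 0.12 for Mcm2 (SE), and the rest did not pass the test. Mcm4 also passed without NOD (-0.54) and with Ptprc in the model (-0.61), while Mcm2 passed in neither (-0.20, adjusted p = 0.0737, and -0.13, 0.356, edgeR).

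Cdk6 (chromosome 5) was low in AJ and high in the wild-derived strains CAST and PWK. AJ ranged from 14 to 67.1 (median 33.4), CAST from 65.4 to 323 (median 139), and the 5 PWK libraries had 119, 129, 132, 152 and 195. The medians of 129, B6, NZO and WSB were 52.1, 45.6, 80.2 and 53.7. The log2 fold changes were -1.50 ± 0.19 in AJ, 1.03 ± 0.16 in CAST and 1.00 ± 0.24 in PWK (SE), and in the wild-derived WSB it was -0.67 ± 0.17 (SE). Among 129, NOD, NZO and PWK alone, the strains of library numbers 66 to 100, Cdk6 in PWK was at 0.53 and did not pass the test (adjusted p = 0.0748, edgeR). NOD had the highest median, 175. Cdk4, the other kinase of the D-type cyclins, had strain medians from 2425 in PWK to 2782 in AJ.

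E2f1, the transcription factor that drives entry into replication, was highest in NZO and WSB and lowest in 129 and AJ. The 4 NZO libraries had 488, 605, 752 and 905, WSB ranged from 444 to 795 (median 630), AJ from 167 to 354 (median 249) and 129 from 199 to 251 (median 215). The libraries of 129 and WSB did not overlap. The log2 fold changes were 0.92 ± 0.12 in NZO, 0.78 ± 0.07 in WSB, -0.70 ± 0.08 in AJ and -0.95 ± 0.10 in 129 (SE). NOD, at a median of 349, was in the middle, and E2f1 had no slope on Ptprc (0.00). E2f2, in contrast, rose with Ptprc and was lower in CAST (-0.85 ± 0.16, SE), where it did not pass with Ptprc in the model (-0.32, adjusted p = 0.058, edgeR).

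Of the inhibitors, Cdkn2a, which encodes p16 and p19 from overlapping reading frames, was lowest in CAST. Its counts were few, from 0 to 8.24 in CAST (median 2.26), and medians of the other strains ranged from 7.63 in WSB to 20.7 in NOD. The log2 fold change of CAST was -1.88 ± 0.29 (SE, adjusted p = 4.36e-08). The libraries of CAST and NZO (13.4, 15.5, 16.6 and 26.6) did not overlap. Its neighbour Cdkn2b, of the same kinase inhibitor family, was also lower in CAST, by -0.36 ± 0.08 (SE), and was higher in B6 and WSB by 0.42 and 0.35. Cdkn1a varied within strains, from 670 to 5124 in AJ and from 1071 to 4862 in WSB, and was lower in 129 (-0.70 ± 0.24, SE).

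The D-type cyclins had strain patterns of their own. Ccnd1 was lowest in WSB, from 936 to 1670 (median 1332), and highest in B6, from 2435 to 3917 (median 3176), and the libraries of these strains did not overlap. The log2 fold changes were -0.83 ± 0.08 and 0.63 ± 0.07 (SE). Ccnd2, the most abundant member, was lowest in NZO, whose 4 libraries had 10752, 14699, 14771 and 19687, against medians of 18009 to 26927 in the other strains, a log2 fold change of -0.53 ± 0.12 (SE, adjusted p = 0.000143). In NOD Ccnd2 ranged from 9690 to 22676, with the lowest values in the 3 libraries with the most Ptprc. The clamp Pcna was highest in AJ (1075 to 2083, median 1635) and lowest in PWK (383 to 740, median 581), with log2 fold changes of 0.82 ± 0.10 and -0.84 ± 0.17 (SE). Ccne1 was lowest in PWK as well, from 38.9 to 63.2 (median 50.1), against medians of 58.6 to 108 in the other strains (adjusted p = 5.28e-07, edgeR).

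**Figure D5:**
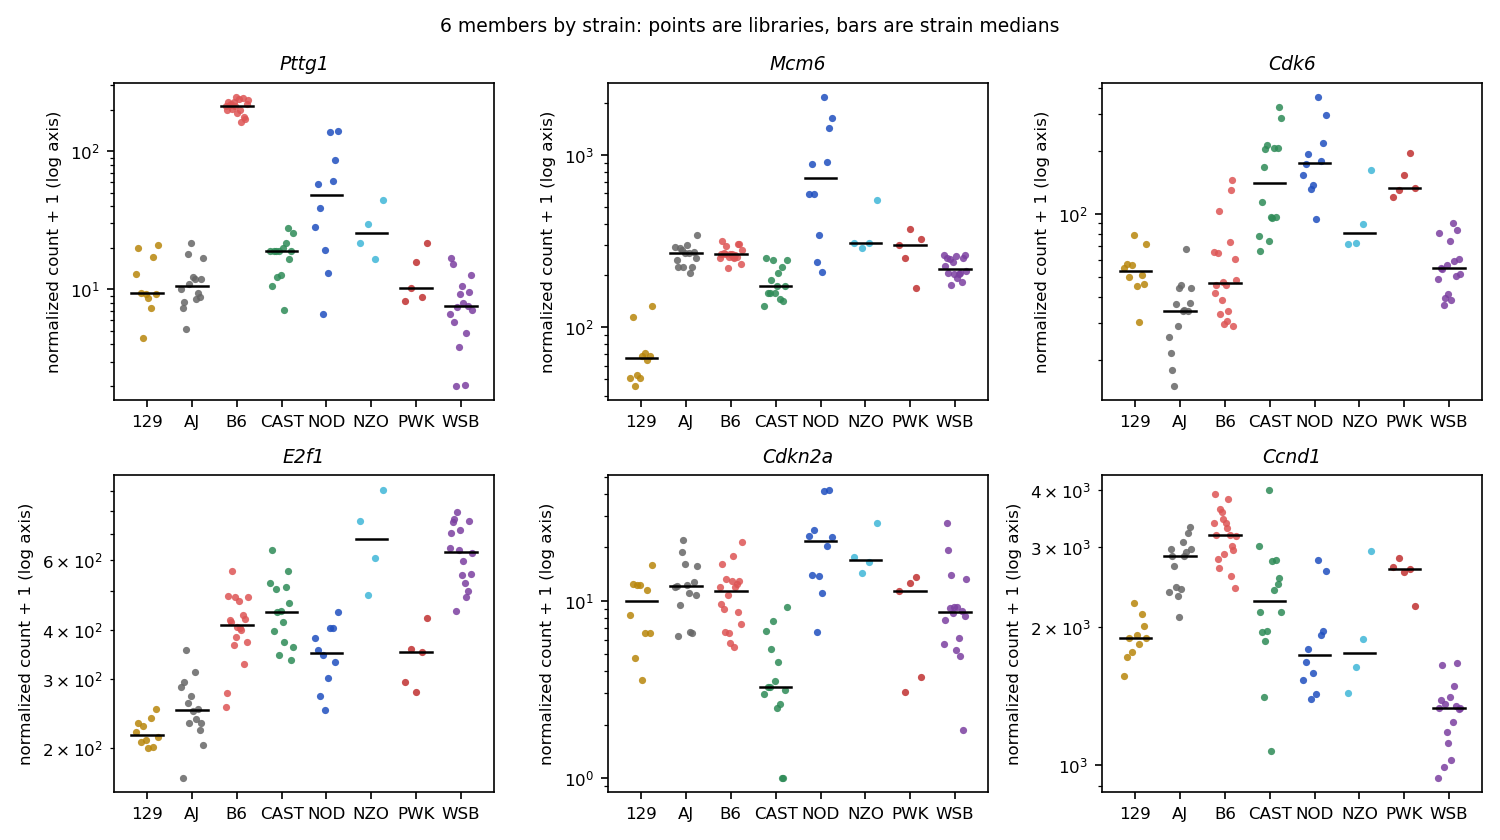
Normalized counts plus 1 (log axis) of Pttg1, Mcm6, Cdk6, E2f1, Cdkn2a and Ccnd1 by strain, with points for libraries and bars for strain medians. Pttg1 lies at 162 to 244 in B6 and at or below 43.5 in every other strain but NOD, and Mcm6 in 129 has a median of 65.6.

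The high mitotic values of NZO were those of a single library. Mki67 had counts of 46.8, 59.4 and 175 in the 3 libraries of females and 808 in NZO library 4, the only one of a male, and Top2a had 24.9, 42.1 and 128 against 657. All 22 genes of G2 and mitosis were highest in this library, as were 41 of the 48 members. Its Ptprc count was 732, the highest of NZO (the others had 187, 308 and 524), with 110 Mki67 counts for each 100 of Ptprc, where the NOD libraries of the next higher and lower Ptprc had 24.8 and 31.1. Its Cd68 and Cd3e counts were 292 and 16.9. Without NOD, 15 members were higher in NZO (24.7% of genes), with a median log2 fold change of 0.52 over the members. Without this library as well 3 were higher (17.7%), Cdk2, E2f1 and Mcm6 (0.56, 0.73 and 0.60), with a median of -0.18. In that fit 5 were lower, Ccna2 (-1.25), Prc1 (-0.94), Ccnd2 (-0.45), Ccnd1 (-0.40) and Mcm7 (-0.24). No share of all genes is given for this count. The median over the 22 genes of G2 and mitosis was -0.38. Mki67 in NZO had a log2 fold change of 0.57 ± 0.40 (SE) with all libraries and of -0.77 without NZO library 4, neither of which passed the test. Without NOD it was 0.95 and passed (adjusted p = 0.0226, edgeR), and without both NOD and NZO library 4 it was -0.32 and did not (0.638). Sex and this library cannot be told apart in NZO. Against all other strains, 5 of 5 ductal, 5 of 6 fibroblast and stellate, 4 of 5 endothelial and 3 of 4 Schwann cell markers were higher in NZO. Of 4 other endocrine markers 3 were lower, of 8 beta cell markers 1 was higher and 2 lower, and of 9 acinar markers 0 were called. Their part in the values of the members was not tested.

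In PWK the only library of a female, PWK library 5, was highest for 19 of the 22 genes of G2 and mitosis, with Mki67 at 253 against 48, 55.1, 60.5 and 215. PWK library 3, with the most Ptprc of PWK (1247), had 215. With Ptprc in the model 24 members were lower in PWK (23.5% of genes), in place of 7, and Mki67 had -0.93. The slope of Mki67 on Ptprc was 0.51 in that model and 0.26 without NOD, so that the value in PWK depends on the NOD libraries. Without NOD and without Ptprc in the model, 5 members were lower in PWK (22.6% of genes). Mki67 then had -0.26 ± 0.36 (SE, adjusted p = 0.571, edgeR). Single libraries of other strains stood high without much Ptprc too. B6 library 6 had a Mki67 count of 446 with a Ptprc count of 115, where the B6 median of Mki67 was 126, and CAST library 11 had 328 with a Ptprc count of 176.

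Acinar content moved with the members as well. Fitted with strain and sex, the mean log2 level of 9 acinar markers had a negative slope for 24 members (11% of genes), 17 of them in G2 and mitosis, and a positive slope for 1, Cdk6 (14.1% of genes). With Ptprc also in the model, 7 members were negative (9.41% of genes) and 2 positive (14.2%). AJ had the least acinar RNA, and 32 members were lower in AJ with the acinar markers in the model (27% of genes), in place of 14, and 8 with both the acinar markers and Ptprc (17.7%). The part of acinar RNA in these differences was not tested. Within the 4 strains of library numbers 66 to 100, NOD had 41 members higher (32.6% of genes) and 3 lower (27.3%), and among AJ, B6, CAST and WSB alone 29 members differed between strains with the number range in the model (86.6%). Each of the strains at 66 to 100 has its own numbers, so that the first of these fits does not hold number fixed.

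Of a list of 84 other genes of the cell cycle, all tested, 65 were higher in NOD (35.8% of genes) and 6 lower (29.5%), with a median log2 fold change of 1.02, where that of the members was 1.65. On Ptprc 63 had a positive slope (20.9% of genes) and 3 a negative one (16.6%), and with Ptprc in the model 1 was higher (8.18%) and 1 lower (7.84%) in NOD. In B6 7 of the 84 were higher (25.6% of genes) and 39 lower (27.6%), where 4 and 15 of the 48 members were. The 6 with the largest differences were all higher in NOD. Uhrf1, which carries DNA methylation through replication, had a median of 268 in NOD and 23.4 elsewhere (3.64 ± 0.25, SE), and the spindle motor Kif2c had 61.4 and 7.26 (3.42 ± 0.28, SE). The kinase Melk, Cdca7, the repressor E2f8 and the replication factor Mcm10 had log2 fold changes of 3.31, 3.17, 2.99 and 2.78. With Ptprc in the model these 6 lay between -0.39 and 0.71.

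Some of these counts can hold reads of other genes. The spans of 13 members overlap another protein-coding gene, nearly always on the opposite strand (Cdk4 with Tspan31, Cdk2 with Pmel, Ccna2 with Exosc9, Cdc20 with Elovl1 and Ube2c with Tnnc2 among them), and the labels do not say whether the libraries keep the strand. Processed pseudogenes are annotated for Ccnb1, Ccnb2, Ccnd3, Pcna and Tyms. Ccnd2 and Cdk6 overlap antisense transcripts, and Pttg1, Mcm6, E2f1 and Cdkn2a overlap no other annotated gene.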

How the data were processed

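Islet mRNA of 8 strains was measured in 91 libraries, grouped by the strain and sex that the labels give. The authors quantified reads with RSEM (version not given in the sources used here) on mm10 and GENCODE vM18, and deposited for each gene and library an expected count, which is an estimated count that need not be whole and was not normalized between libraries. The TPM values in the same tables were also deposited by the authors and sum to the same total in each library. Reads of all strains were counted against the reference annotation, which is that of C57BL/6J, and the effect of strain sequence on the counts was not tested. Symbols and coordinates came from GENCODE M21 (GRCm38), which matched 54079 of 54146 identifiers.

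Protein-coding genes of chromosomes 1 to 19 and X were kept, the lowest 10% by variance were removed, and a count above 0 in at least 85% of the libraries was required, which left 15204 genes. Expected counts were rounded and tested with edgeR 4.0.16 (quasi-likelihood F test, upper-quartile normalization, model of strain and sex, R 4.3.3), and p-values were adjusted by Benjamini and Hochberg over all tested genes with a threshold of 0.05. For a normalized count, each count was divided by its library's effective size after scaling these sizes to a mean of 1. Covariates were log2(normalized count + 1) of Ptprc and the mean of this value over the immune or acinar markers. A share of 3 counts corresponds to 0.0852 to 0.177 CPM at these depths, which covers counting error only. Alternatives used limma-voom (limma 3.58.1), DESeq2 1.42.0, other normalizations, filters, covariates and sets of libraries. The edgeR and limma-voom tests were first checked on simulated counts.

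The members and gene lists were chosen with earlier results of these data known. Levels were described in full for the 20 largest log2 fold changes of at least 1 in size among those past the threshold in any strain contrast, and for Mki67. Cdk6, E2f1, E2f2, Cdkn2a, Ccnd1, Ccnd2, Pcna, Ccne1 and further strains of other members were named after their values were seen. So were the pairs of strains whose libraries did not overlap for E2f1, Cdkn2a and Ccnd1. No share of all genes is given for these pairs. The acinar covariate for the strain effect, its combinations with Ptprc, fits without NOD and 1 library of NZO or PWK, the fit without NOD library 7, and the interaction with Ptprc, without NOD or without the 2 NOD libraries opposite to their label were chosen after seeing the data.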

Additional observations from a re-analysis of the deposited data

Results flagged for a closer look

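Groups of 4 to 10 libraries were searched for a library far from the rest, by its gap to the nearest other library relative to the range of its group. Over 30 members and 120 such groups 19 values stood out, all of them the highest of their group. The members share the same libraries and many are transcribed together, so that the 19 values are not independent. Their number is therefore not set against chance. NZO library 4 accounted for 13 of them, with normalized counts of 808 for Mki67, 657 for Top2a, 545 for Mcm6, 210 for Kif11, 208 for Ccna2, 205 for Cdc20, 173 for Nusap1, 143 for Cdk1, 139 for Ube2c, 110 for Birc5, 101 for Plk1, 82.1 for Bub1b and 49.5 for Cdc6. In 129, library 10 stood out for Mcm3 (158), Cdc20 (74) and Birc5 (44), and its Ptprc count of 895 was the highest of 129. Library 8 of 129 stood out for Cdc6 (29.1) with a Ptprc count of 94.2, and PWK library 5 for Bub1 (24.4) and Cdc6 (24.4).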

How the results depend on the processing

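Of 861 alternative values for 40 named member values, 831 kept their direction and their side of the threshold, 14 kept only their direction, 1 passed the threshold anew and 15 reversed. With Ptprc as covariate the log2 fold changes in NOD no longer passed the test (SE 0.42 to 0.54, adjusted p 0.319 to 0.99, edgeR) and were below 0, though not distinguishable from it, for Aurkb (-0.28), Bub1b (-0.13), Birc5 (-0.27), Cdc6 (-0.01), Top2a (-0.51), Ccnb1 (-0.37), Ccnb2 (-0.22), Cdc20 (-0.15), Cenpe (-0.43), Nusap1 (-0.69), Cdk1 (-0.43), Plk1 (-0.33) and Pttg1 (-0.53). Mki67 in NZO reversed with limma-voom (-0.19) and ranged from -0.77 to 0.91 when libraries of NZO or PWK were left out singly. Ube2c in B6 lost its call with libraries summed per sample (-1.19), and Cdk6 in PWK among 129, NOD, NZO and PWK alone (0.53). The cause of these changes was not tested.

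The counts that moved by more than 1.5 times follow. They show how far the calls depend on each choice, and nothing particular to the members is read from them. With Ptprc as covariate, 19.9% to 29.3% of genes were higher and 14.9% to 26.1% lower in each strain but NOD, and the members' share was below that of all genes in each of these strains and directions except for those lower in PWK (50% against 23.5%). With Ptprc as covariate, members higher numbered 11 in 129, 10 in AJ, 8 in B6, 10 in CAST, 1 in NOD, 1 in NZO and 12 in WSB, and members lower 7 in 129, 6 in AJ, 5 in B6, 3 in CAST, 1 in NOD, 2 in NZO, 24 in PWK and 4 in WSB. With the immune markers as covariate, members higher numbered 8 in B6, 7 in CAST, 1 in NOD, 1 in NZO and 11 in WSB, and members lower 7 in 129, 8 in AJ, 4 in B6, 4 in CAST, 2 in NOD, 2 in NZO, 19 in PWK and 4 in WSB. With the acinar markers as covariate, members higher numbered 4 in PWK, and members lower 19 in 129, 32 in AJ and 6 in CAST. With both Ptprc and the acinar markers, members higher numbered 2 in AJ, 9 in B6, 14 in CAST, 0 in NOD, 1 in NZO and 12 in WSB, and members lower 6 in 129, 8 in AJ, 6 in B6, 4 in CAST, 1 in NOD, 2 in NZO, 17 in PWK and 4 in WSB. Without NOD, members higher numbered 8 in B6 and 15 in NZO, and members lower 9 in B6, 6 in CAST and 7 in WSB, and 7 slopes on Ptprc were positive, and 0 slopes on Ptprc were negative. With a log2 fold change of at least 1 required, members higher numbered 0 in 129, 0 in AJ, 1 in B6, 1 in CAST, 0 in NZO, 1 in PWK and 0 in WSB, and members lower 2 in 129, 2 in AJ, 2 in B6, 1 in CAST, 0 in NOD, 0 in NZO, 1 in PWK and 1 in WSB. With libraries summed per sample, members higher numbered 2 in 129 and 2 in CAST, and members lower 7 in 129, 6 in AJ, 4 in B6, 5 in CAST, 2 in NOD, 2 in NZO and 3 in WSB. Without the libraries opposite to their sex label, members higher numbered 2 in 129, and members lower 2 in 129, and the sex effect was called for 1, and the interaction was called for 24. Among 129, NOD, NZO and PWK alone, members higher numbered 3 in 129 and 1 in NZO, and members lower 2 in NZO. Among AJ, B6, CAST and WSB alone, in a model that also holds the number range, so that strains and covariate changed at once, members higher numbered 8 in B6 and 9 in CAST, and members lower 8 in B6 and 5 in WSB, and 29 members differed between strains. Without NOD and NZO library 4, members higher numbered 7 in PWK, and members lower 5 in NZO. Without NOD and PWK library 5, members higher numbered 20 in NZO and 4 in PWK, and members lower 12 in PWK. With TMM, members higher numbered 2 in NZO. With median-ratio size factors, members higher numbered 2 in NZO. With no filter, members higher numbered 2 in NZO. With limma-voom, members higher numbered 2 in NZO, and members lower 11 in WSB. With DESeq2, members higher numbered 2 in NZO, and members lower 11 in PWK. The sex effect of Ccne1 was also called with Ptprc as covariate and without NOD. The interaction was called for 27 members without the NOD libraries opposite to their label and for 2 without all opposite libraries and with Ptprc. In NOD alone 1 slope on Ptprc was negative, and with Ptprc in the model acinar slopes were positive for 2 members and negative for 7. When 1 library of NZO or PWK was left out at a time, members higher and lower numbered 1 to 7 and 1 to 3 in NZO and 1 to 3 and 3 to 14 in PWK. No paired analysis was possible because the labels give the libraries no shared replicate numbers. Depth limits the 14 members under 1 TPM, whose counts are few, and the 4 NZO and 5 PWK libraries limit those strains. Sums per sample leave few residual degrees of freedom, since each strain then has 1 value per sex.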
